A study of Mus musculus with 14 samples.

Results

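The 37 genes described here are genes that macrophages express, measured in cultures of mouse embryonic fibroblasts. They were chosen by name, and all 37 symbols were found among the 24015 rows of the deposited gene table. Fibroblasts were isolated from strain 129s2 embryos of day 14.5 and used at passages 3 to 4. Cultures were wild type or SirT7-/-, that is, lacking the sirtuin SirT7, a protein deacylase that uses NAD. Each genotype was kept for 18 h in normal medium or in medium without glucose, and total RNA was sequenced. The 14 libraries fall into 4 groups: 4 of wild type in normal medium (WT-NT), 3 of wild type without glucose (WT-GS), 4 of SirT7-/- in normal medium (KO-NT) and 3 of SirT7-/- without glucose (KO-GS). The labels do not say whether replicates came from separate embryos or cultures, so p-values measure the spread between these libraries, which may be technical.

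Macrophages are phagocytes of the innate immune system that settle in nearly every tissue of the embryo, and they are known to be carried along into fibroblast cultures. Their survival depends on the receptor tyrosine kinase CSF1R, whose ligand CSF1 is secreted by fibroblasts. Their gene programme is governed by the ETS family transcription factor PU.1, the product of Spi1, which binds purine-rich DNA around a core of GAGGAA. The 37 genes cover 9 roles, from the lineage factor and growth factor receptor through surface markers, chemokine receptors, Fc receptors and their adapters, complement C1q, uptake and lysosome genes, the Ms4a family and actin regulators to the transglutaminase F13a1.

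Promoters are shown because nearly all members had their highest and lowest level in the same libraries and because PU.1 is the textbook regulator of many of them. RefSeq promoter sequences of build GRCm38.p6, each running from 250 bases before to 50 bases after the gene start, were matched by symbol for 29 of the 37 genes, which have 35 promoters in all. The motif GAGGAAGT, searched on both strands, was found in the promoters of 6 of the 29 genes, namely C1qc, Cd53, Ctss, F13a1, Pf4 and Pld4. It occurs in 3.20% of all 32851 promoters in the same table. Other spellings, each searched on both strands, overlap this motif. GAGGAAG was present in promoters of 12 of the 29 genes against 13.6% of all promoters, AGGAAGT in 12 against 9.35% and GGAAGTG in 11 against 11%. Counted by promoter, as the percentages are, GAGGAAGT was in 6 of the 35, GAGGAAG in 14, AGGAAGT in 13 and GGAAGTG in 11. A match is a string of letters, not a measured binding site. The promoters of Pld4 (chr12:112760405-112760704, plus strand), C1qc (chr4:136892865-136893164, minus strand), Cd53 (chr3:106790100-106790399, minus strand) and F13a1 (chr13:37049164-37049463, minus strand, 1 of 2 listed) carry the motif or its reverse complement, in capitals. That of Ms4a4d (chr19:11536544-11536843, plus strand) holds neither, like those of most of the 29 genes. It is shown because its level followed another course than those of the other members. F13a1, which carries the motif, deviated second most from the common course, and a link between motif and course was not tested. All are written 5′ to 3′ in the direction of the gene.
Pld4: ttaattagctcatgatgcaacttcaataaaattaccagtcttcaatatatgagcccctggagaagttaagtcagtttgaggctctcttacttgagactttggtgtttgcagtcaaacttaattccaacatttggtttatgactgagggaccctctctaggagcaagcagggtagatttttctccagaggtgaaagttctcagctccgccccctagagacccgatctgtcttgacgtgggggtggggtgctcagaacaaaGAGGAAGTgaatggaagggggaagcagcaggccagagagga
C1qc: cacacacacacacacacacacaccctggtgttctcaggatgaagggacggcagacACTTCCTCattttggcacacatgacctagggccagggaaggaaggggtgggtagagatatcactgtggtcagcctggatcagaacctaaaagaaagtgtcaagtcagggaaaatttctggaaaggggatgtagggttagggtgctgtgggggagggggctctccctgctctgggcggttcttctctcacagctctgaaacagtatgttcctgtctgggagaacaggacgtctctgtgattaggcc
Cd53: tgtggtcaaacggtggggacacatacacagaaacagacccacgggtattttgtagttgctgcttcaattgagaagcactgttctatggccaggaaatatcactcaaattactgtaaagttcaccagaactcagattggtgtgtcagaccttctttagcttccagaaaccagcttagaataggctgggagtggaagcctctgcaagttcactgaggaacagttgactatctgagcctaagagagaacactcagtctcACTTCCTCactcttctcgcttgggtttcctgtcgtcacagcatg
F13a1: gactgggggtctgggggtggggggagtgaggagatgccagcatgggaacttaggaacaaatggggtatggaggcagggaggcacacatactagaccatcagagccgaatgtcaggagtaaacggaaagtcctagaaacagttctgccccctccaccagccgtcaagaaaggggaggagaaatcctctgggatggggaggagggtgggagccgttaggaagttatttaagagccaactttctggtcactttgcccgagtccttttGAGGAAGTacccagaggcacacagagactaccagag
Ms4a4d: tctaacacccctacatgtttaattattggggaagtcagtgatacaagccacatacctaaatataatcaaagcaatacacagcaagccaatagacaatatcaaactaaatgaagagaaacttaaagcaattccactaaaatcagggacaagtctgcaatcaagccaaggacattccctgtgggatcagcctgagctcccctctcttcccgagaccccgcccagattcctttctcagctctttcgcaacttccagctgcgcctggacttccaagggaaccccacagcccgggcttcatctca

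Total counts ran from 59788270 in WT-GS 2 to 91607861 in KO-NT 4, so that 3 counts, used here as the floor of detection, correspond to 0.0328 to 0.0502 counts per 1000000 counts of the library (CPM). This floor covers counting error only, not the spread between libraries. Sirt7 itself lay between 16.9 and 23.1 CPM in the wild-type libraries and between 0.301 and 1.415 CPM in the SirT7-/- ones. Hspa5, the endoplasmic reticulum chaperone that rises without glucose, went against the medium label of 2 libraries. It stood at 6333 CPM in the library labelled KO-NT 4, where the other libraries of normal medium had 1065 to 1556 CPM, and at 1066 CPM in the library labelled KO-GS 3, where the other starved libraries had 5654 to 7435 CPM. Tests and sums of SirT7-/- cultures are therefore given with and without these 2 libraries. Fibroblast genes were abundant in all 14 libraries, with 8 markers summing to 9210 to 34400 CPM. Among other blood cells, T cell markers summed to at most 2.03 CPM with Cd3e, Cd3g and Cd2 at 0 counts in every library, and neutrophil markers to at most 1.38 CPM.

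Counts of the macrophage genes were found in every library, in amounts that varied widely within groups. Summed over the 37 genes, the level was 1901, 535.5, 3865 and 1098 CPM in WT-NT 1 to 4, and 606.5, 25.46 and 504.8 CPM in WT-GS 1 to 3. In SirT7-/- cultures it was 1531, 835.3, 734.3 and 1222 CPM in KO-NT 1 to 4, and 1895, 184.6 and 1170 CPM in KO-GS 1 to 3. The highest library, WT-NT 3, stood 151.8-fold above the lowest, WT-GS 2, and the sum made up 0.387% of all counts in the former and 0.00255% in the latter. WT-NT 3 was the highest library for 36 of the 37 genes, the exception being Ms4a4d, and WT-GS 2 was the lowest for 35, the exceptions being Fcgr1 and Ms4a4d, although for Ccr2 and Cd52 it was tied with KO-GS 2 at 0 counts. In WT-GS 2 Spi1, Tyrobp and Ms4a6c were also at 0 counts and Emr1 had 5, so that its remaining counts are not shown to come from macrophages. In bulk RNA, fewer macrophages and less RNA per macrophage cannot be told apart. WT-GS 2 and KO-GS 2, the libraries with the lowest sums, were also the shallowest, at 59788270 and 63198478 counts; the part of depth in the result was not tested.

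**Figure D1:**
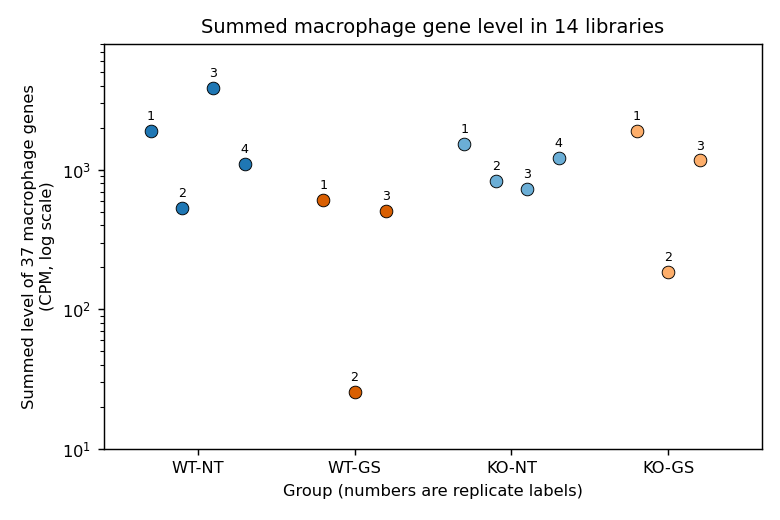
Summed level of the 37 macrophage genes in CPM on a log axis, 1 point per library, by group, with replicate numbers beside the points. WT-GS 2 lies at 25.46 CPM and WT-NT 3 at 3865 CPM, and in each genotype the ranges of the fed and starved groups overlap.

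By group, the summed level was 1850 ± 1455 CPM (SD, n = 4) in WT-NT, 378.9 ± 310.3 (n = 3) in WT-GS, 1081 ± 366.5 (n = 4) in KO-NT and 1083 ± 858.6 (n = 3) in KO-GS. The starved wild-type mean was lower than the fed one by 2.29 on the log2 scale, but WT-GS 1 at 606.5 CPM lay above WT-NT 2 at 535.5 CPM. In SirT7-/- cultures the means of the 2 media were nearly equal, with a log2 ratio of 0.00345. It was 0.00868 without the libraries labelled KO-GS 3 and KO-NT 4. That value rests on 2 starved libraries far apart, KO-GS 1 at 1895 CPM and KO-GS 2 at 184.6 CPM. Leaving out 1 library at a time gave log2 ratios from -0.67 to 0.50. No test was applied to the sum, since its genes were chosen together.

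The growth factor receptor and the lineage factor were highest in WT-NT 3 and lowest in WT-GS 2. Csf1r stood at 125, 32.8, 231 and 61.6 CPM in WT-NT 1 to 4, at 23.9, 1.81 and 25.4 CPM in WT-GS 1 to 3, at 120.3, 61.2, 52.1 and 52.7 CPM in KO-NT 1 to 4 and at 85.0, 7.801 and 59.99 CPM in KO-GS 1 to 3. Every starved wild-type library was below every fed one, whereas in SirT7-/- cultures KO-GS 1 exceeded 3 of the 4 fed libraries and KO-GS 2 lay below all. Spi1, which encodes PU.1, ranged from 0 counts in WT-GS 2 to 29.1 CPM in WT-NT 3.

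Surface markers of the lineage were likewise highest in WT-NT 3 and lowest in WT-GS 2, which for Cd52 was tied with KO-GS 2 at 0 counts. Emr1, the gene of the F4/80 antigen used to identify mouse macrophages, stood at 36.99, 11.2, 81.2 and 31.1 CPM in WT-NT 1 to 4, at 14.7, 0.0836 and 11.8 CPM in WT-GS 1 to 3, at 25.4, 14.4, 11.6 and 26.3 CPM in KO-NT 1 to 4 and at 45.5, 3.56 and 26.2 CPM in KO-GS 1 to 3. In wild type WT-GS 1 and 3 lay above WT-NT 2, and in SirT7-/- the starved KO-GS 1 was the highest of all 7 libraries. Ptprc, which encodes the pan-leukocyte phosphatase CD45, stood at 32.9, 5.63, 52.2 and 14.1 CPM in WT-NT 1 to 4, at 5.801, 0.0502 and 6.64 CPM in WT-GS 1 to 3, at 31.2, 13.1, 12.1 and 13.2 CPM in KO-NT 1 to 4 and at 21.6, 2.31 and 15.1 CPM in KO-GS 1 to 3. It was represented by only 3 counts in WT-GS 2, and the wild-type groups overlapped. Cd14, the co-receptor for bacterial lipopolysaccharide, stood at 36.1, 15.1, 63.1 and 15.01 CPM in WT-NT 1 to 4, at 7.45, 1.72 and 6.88 CPM in WT-GS 1 to 3, at 41.2, 20.3, 17.5 and 12.04 CPM in KO-NT 1 to 4 and at 17.3, 2.405 and 14.6 CPM in KO-GS 1 to 3. Its starved wild-type libraries were all below the fed ones, while KO-GS 1 and 3 lay within the range of KO-NT. The remaining markers, Itgam (an integrin chain), Cd68 (a lysosomal glycoprotein), Cd53 (a tetraspanin), Cd52 and Cd84, peaked in WT-NT 3 at 20.7 to 61.8 CPM and had 0 to 3.70 CPM in WT-GS 2.

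Cx3cr1, the receptor for fractalkine, had the widest span of all members, 2850-fold with libraries under 3 counts set to 3. It stood at 67.1, 12.7, 143 and 24.7 CPM in WT-NT 1 to 4, at 6.74, 0.0502 and 5.38 CPM in WT-GS 1 to 3, at 43.6, 21.5, 18.4 and 11.6 CPM in KO-NT 1 to 4 and at 15.8, 0.807 and 17.9 CPM in KO-GS 1 to 3. Starved wild-type libraries were all below fed ones, and the step from WT-NT 3 to WT-GS 2 took the gene from 10594 counts to 3. Ccr2, the receptor that draws monocytes towards CCL2, stood at 16.6, 0.4601, 26.03 and 1.101 CPM in WT-NT 1 to 4, at 0.259, 0 and 0.328 CPM in WT-GS 1 to 3, at 9.07, 1.81, 1.53 and 0.371 CPM in KO-NT 1 to 4 and at 0.614, 0 and 0.504 CPM in KO-GS 1 to 3. It was high in WT-NT 1, WT-NT 3 and KO-NT 1 and at 0 counts in WT-GS 2 and KO-GS 2. Pf4, a chemokine also stored in platelets, reached 7.77 CPM in WT-NT 3.

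Among the Fc receptors and their adapters, Tyrobp, the adapter DAP12 through which Trem2 signals, stood at 34.4, 11.9, 58.9 and 16.4 CPM in WT-NT 1 to 4, at 9.63, 0 and 9.79 CPM in WT-GS 1 to 3, at 32.4, 18.01, 14.7 and 21.9 CPM in KO-NT 1 to 4 and at 34.9, 3.42 and 18.4 CPM in KO-GS 1 to 3. It had no count in WT-GS 2, and wild-type groups did not overlap. Fcgr1, the high-affinity receptor for IgG, stood at 15.7, 3.15, 28.9 and 4.79 CPM in WT-NT 1 to 4, at 2.77, 0.636 and 1.61 CPM in WT-GS 1 to 3, at 9.96, 3.95, 3.41 and 3.47 CPM in KO-NT 1 to 4 and at 6.55, 0.601 and 4.43 CPM in KO-GS 1 to 3. Its starved wild-type libraries were all below the fed ones, and its lowest library was KO-GS 2. Fcer1g, the common Fc receptor gamma chain, together with Fcgr2b, Fcgr3 and the lipid-sensing receptor Trem2, had 0.151 to 0.435 CPM in WT-GS 2 and 23.3 to 66.7 CPM in WT-NT 3.

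The 3 chains of complement C1q, which lie next to one another on chromosome 4, were each highest in WT-NT 3 and lowest in WT-GS 2. C1qb stood at 105, 25.5, 214 and 43.2 CPM in WT-NT 1 to 4, at 25.9, 0.217 and 24.9 CPM in WT-GS 1 to 3, at 60.8, 37, 32.2 and 65.99 CPM in KO-NT 1 to 4 and at 91.3, 5.74 and 43.7 CPM in KO-GS 1 to 3. In wild type WT-GS 1 exceeded WT-NT 2 by less than 1 CPM, and in SirT7-/- the highest and the lowest library were both starved. C1qa and C1qc reached 141 and 129.6 CPM in WT-NT 3 and had 0.151 and 0.117 CPM in WT-GS 2.

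**Figure D2:**
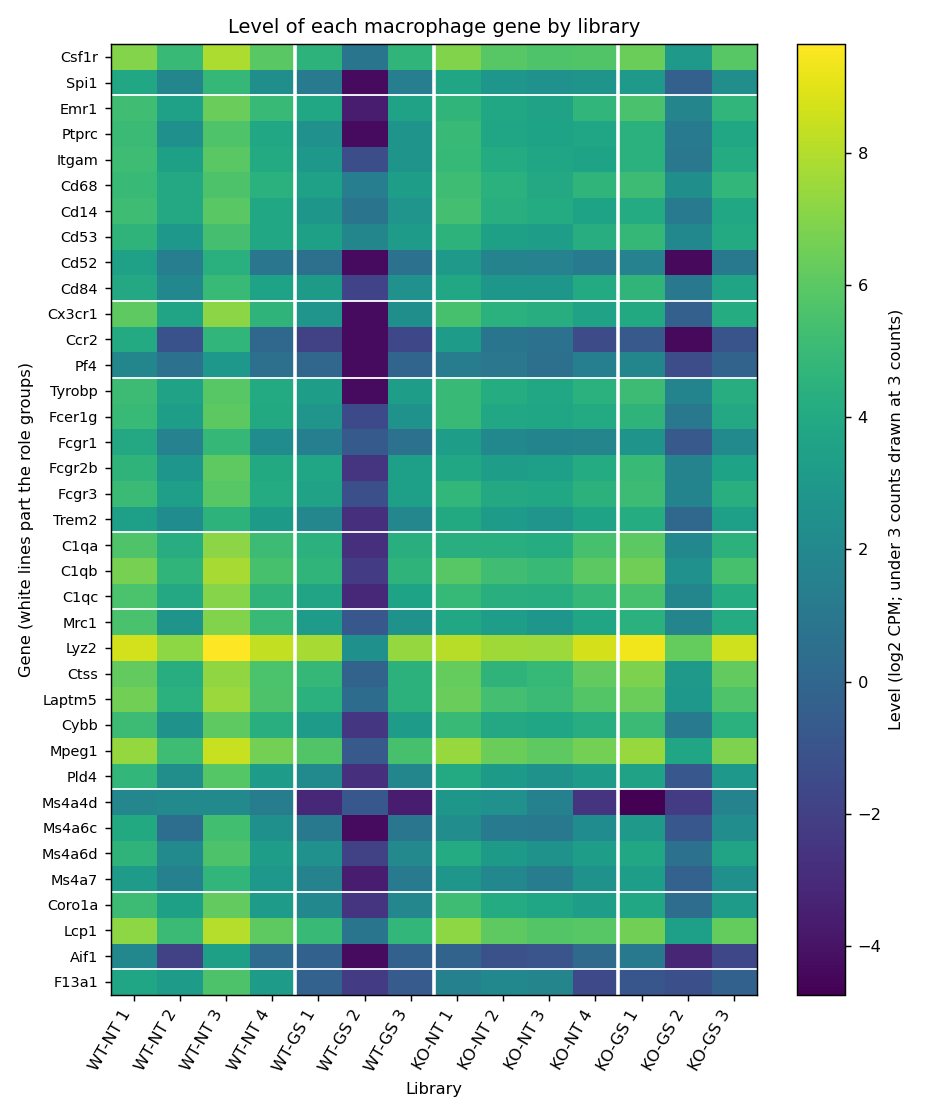
Level of each of the 37 genes (rows, by role) in each of the 14 libraries (columns) as log2 CPM, with values under 3 counts drawn at 3 counts. WT-GS 2 is the lowest library for 35 of the 37 genes, tied with KO-GS 2 at 0 counts for Ccr2 and Cd52, and WT-NT 3 the highest for 36, and Ms4a4d follows another order.

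Genes of uptake and killing included the member with the most counts. This was Lyz2, the lysozyme of myeloid cells, which stood at 404, 145, 799 and 325 CPM in WT-NT 1 to 4, at 221, 5.57 and 164 CPM in WT-GS 1 to 3, at 270.4, 190.3, 187 and 427 CPM in KO-NT 1 to 4 and at 651, 75.5 and 388 CPM in KO-GS 1 to 3. It took 17.7 to 40.9% of the summed counts of the 37 genes, and fed and starved libraries overlapped in both genotypes. Mrc1, the mannose receptor, stood at 45.7, 6.63, 123 and 31.4 CPM in WT-NT 1 to 4, at 9.22, 0.552 and 6.31 CPM in WT-GS 1 to 3, at 15.02, 9.86, 7.09 and 13.2 CPM in KO-NT 1 to 4 and at 22.2, 3.43 and 17.04 CPM in KO-GS 1 to 3. WT-NT 2 at 6.63 CPM lay below WT-GS 1, so the wild-type groups overlapped, and the 4 KO-NT libraries all lay between WT-NT 2 and WT-NT 4. Ctss (cathepsin S), Laptm5, Cybb (the NADPH oxidase subunit that makes superoxide), Mpeg1 (the pore-forming perforin-2) and Pld4 reached 57.3 to 345 CPM in WT-NT 3 and were at 0.151 to 1.29 CPM in WT-GS 2.

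Among the actin regulators, Lcp1, the bundling protein L-plastin, stood at 149, 33.4, 265 and 67.2 CPM in WT-NT 1 to 4, at 32.3, 1.82 and 27.1 CPM in WT-GS 1 to 3, at 145, 66.2, 55.8 and 59.2 CPM in KO-NT 1 to 4 and at 97.2, 10.4 and 76.8 CPM in KO-GS 1 to 3. Coro1a, the leukocyte coronin, stood at 34.4, 10.8, 72.4 and 8.896 CPM in WT-NT 1 to 4, at 3.92, 0.167 and 3.72 CPM in WT-GS 1 to 3, at 35.6, 17.3, 13.8 and 10.1 CPM in KO-NT 1 to 4 and at 14.5, 1.33 and 8.83 CPM in KO-GS 1 to 3. For both genes every starved wild-type library was below every fed one, and KO-GS 1 lay inside the range of KO-NT. Aif1, known as IBA1, was a minor transcript that exceeded 5 CPM only in WT-NT 3, at 10.6 CPM.

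In the Ms4a family of membrane proteins, Ms4a6d stood at 24.5, 4.25, 48.6 and 10.1 CPM in WT-NT 1 to 4, at 5.71, 0.268 and 4.02 CPM in WT-GS 1 to 3, at 17.2, 8.72, 6.04 and 9.96 CPM in KO-NT 1 to 4 and at 14.7, 1.58 and 12.4 CPM in KO-GS 1 to 3. WT-NT 3 and WT-NT 1 were highest and WT-GS 2 lowest, as in the sum. Ms4a6c and Ms4a7 had 38.5 and 26.5 CPM in WT-NT 3, although reads of close paralogues such as Ms4a6b, Ms4a6c and Ms4a6d may have been split or shared by the authors' counting. Ms4a4d, the neighbour of Ms4a6d on chromosome 19, stood at 3.83, 4.25, 4.38 and 2.56 CPM in WT-NT 1 to 4, at 0.118, 0.569 and 0.0821 CPM in WT-GS 1 to 3, at 7.36, 5.72, 3.01 and 0.175 CPM in KO-NT 1 to 4 and at 0, 0.222 and 3.19 CPM in KO-GS 1 to 3.

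Ms4a4d followed the medium and not the macrophage sum. It was above 2.5 CPM in all 4 wild-type and 3 of 4 SirT7-/- libraries of normal medium and below 0.6 CPM in 5 of 6 starved ones. The 2 libraries that broke this order were those labelled KO-NT 4 and KO-GS 3, whose Hspa5 also went against the label. In WT-GS 2, where the macrophage sum was lowest, Ms4a4d was higher than in WT-GS 1 and 3. Its log2 level deviated from the median course of the other members with an SD of 2.76, the largest of the members with a mean of at least 1 CPM, ahead of F13a1 at 1.88 and Ccr2 at 1.64.

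F13a1, the A subunit of coagulation factor XIII and a marker of tissue macrophages, stood at 13.3, 9.22, 49.1 and 9.42 CPM in WT-NT 1 to 4, at 0.873, 0.217 and 0.645 CPM in WT-GS 1 to 3, at 3.02, 4.004, 3.57 and 0.338 CPM in KO-NT 1 to 4 and at 0.551, 0.427 and 0.824 CPM in KO-GS 1 to 3. All 3 starved wild-type libraries were below 1 CPM and all 4 fed ones above 9 CPM. In SirT7-/- the 3 fed libraries other than KO-NT 4 had 3.02 to 4.00 CPM, and KO-NT 4 and the 3 starved libraries lay below 0.9 CPM.

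**Figure D3:**
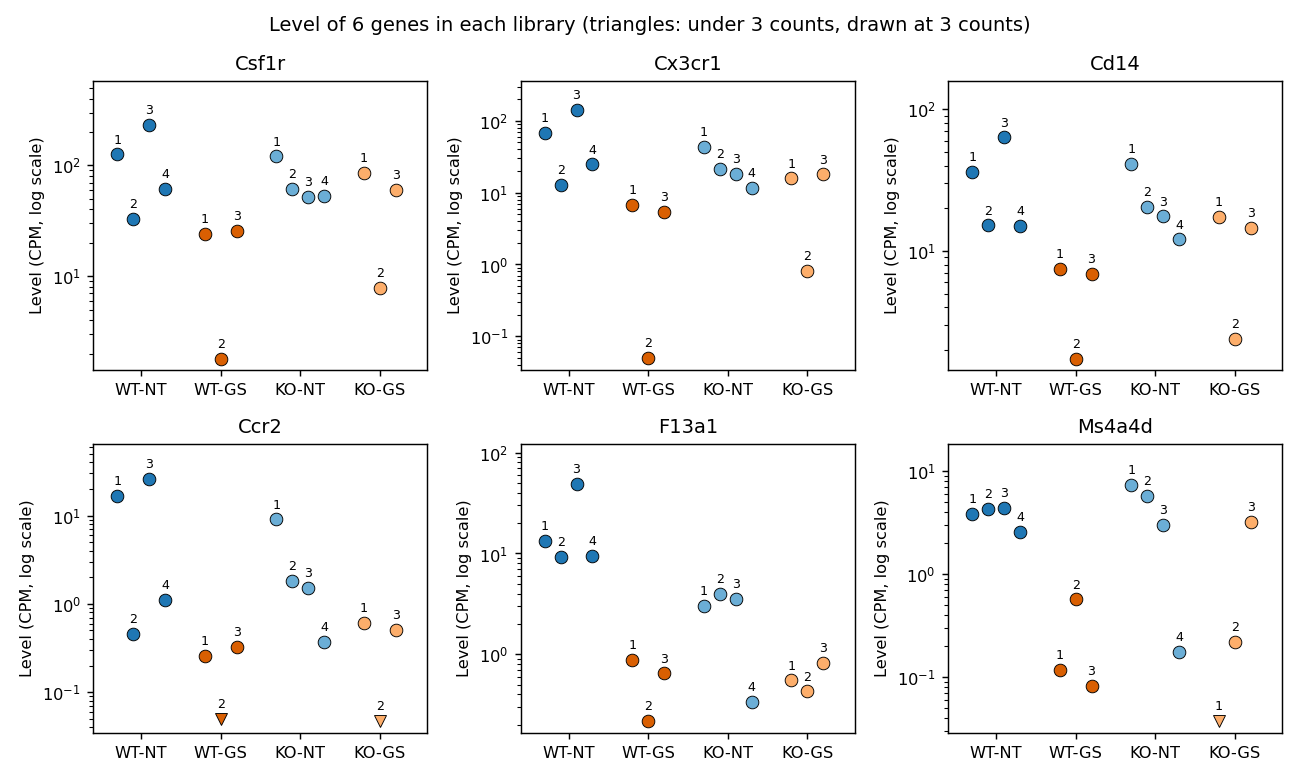
Levels of 6 of the genes in CPM on a log axis, 1 point per library with its replicate number, by group, with triangles for libraries under 3 counts drawn at that floor. Csf1r and the genes that follow it drop to their lowest in WT-GS 2, whereas Ms4a4d is low in starved libraries and in KO-NT 4 and high in KO-GS 3.

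To ask what 18 h without glucose did in wild-type cultures, WT-GS was compared with WT-NT in an edgeR quasi-likelihood fit of all 14 libraries, with Benjamini-Hochberg adjustment over the 15666 genes tested. All 37 members passed the filter on low counts. Of these, 7 fell at an adjusted p under 0.05 and none rose, where 13.1% of all genes tested fell and 25.9% changed in either direction. In this fit 7 of 37 is thus not far from the background, but the number called differed widely between fits. The log2 change was negative for all 37, with a median of -2.60 against -0.04 over all genes. At an unadjusted p under 0.05, 25 of the 37 were lower, against 22.8% of all genes.

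The 7 genes that fell came from 6 roles. F13a1 changed by -5.07 (SE 0.947, adjusted p = 0.0245), from 20.3 ± 19.3 CPM (SD, n = 4) to 0.578 ± 0.333 CPM (n = 3). The chemokine receptors Ccr2 and Cx3cr1 changed by -5.71 (SE 1.799, adjusted p = 0.0382) and -3.87 (SE 1.299, adjusted p = 0.0461). Ccr2 had no count in WT-GS 2 and 22 and 28 counts in WT-GS 1 and 3, so its fitted fold rests on few starved counts. Coro1a changed by -3.54 (SE 1.096, adjusted p = 0.0366), and Mrc1 by -3.21 (SE 1.02, adjusted p = 0.0391) although its groups overlapped. The Fc receptor Fcgr1 and the co-receptor Cd14 changed by -2.92 (SE 0.931, adjusted p = 0.0394) and -2.54 (SE 0.779, adjusted p = 0.0357).

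Defining markers of the lineage did not pass the test in wild type in this edgeR fit. Csf1r gave -2.67 (SE 0.9604, adjusted p = 0.0562) on the log2 scale, with 113 ± 87.7 CPM in WT-NT (n = 4) and 17.0 ± 13.2 CPM in WT-GS (n = 3). The log2 change of Emr1 was -2.12 (SE 1.105, adjusted p = 0.157), that of Ptprc -2.60 (SE 1.11, adjusted p = 0.0935) and that of Lyz2 -1.64 (SE 0.958, adjusted p = 0.204). Tyrobp had -2.17 (SE 1.12, adjusted p = 0.152), C1qb -2.46 (SE 1.17, adjusted p = 0.125), Lcp1 -2.60 (SE 0.987, adjusted p = 0.0658) and Ms4a6d -2.66 (SE 1.03, adjusted p = 0.0698). For Ms4a4d it was -3.88 (SE 1.501, adjusted p = 0.0702). The levels of 19 of the 37 did not overlap between the groups, with every starved library below every fed one, against 24.8% of all genes tested.

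In this edgeR fit the wild-type count rested on single libraries, as did the calls over all genes. When WT-GS 1, WT-GS 2 or WT-NT 3 was left out, no member was called lower, and neither was any other gene (0%). Without WT-GS 3 no member was called, and 0.00628% of all genes fell, a single gene. Without WT-NT 1 the count was 1 member, against 4.56% of all genes. Without KO-NT 2 it was 4, against 10.5% of all genes, and without KO-GS 2 it was 12, against 13.1%. Without the libraries labelled KO-GS 3 and KO-NT 4, 8 members fell, against 19.1% of all genes, among them Ms4a4d at -3.86 (SE 0.871, adjusted p = 0.00542). DESeq2 called 24 members lower, against 19.3% of all genes, and limma-voom 1, against 9.39%. Fits that added a term for the replicate number called more members than any of these, against 16.8 to 21% of all genes falling. Their counts are given with the dependence on processing, and the labels do not say what the replicate numbers mean.

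**Figure D4:**
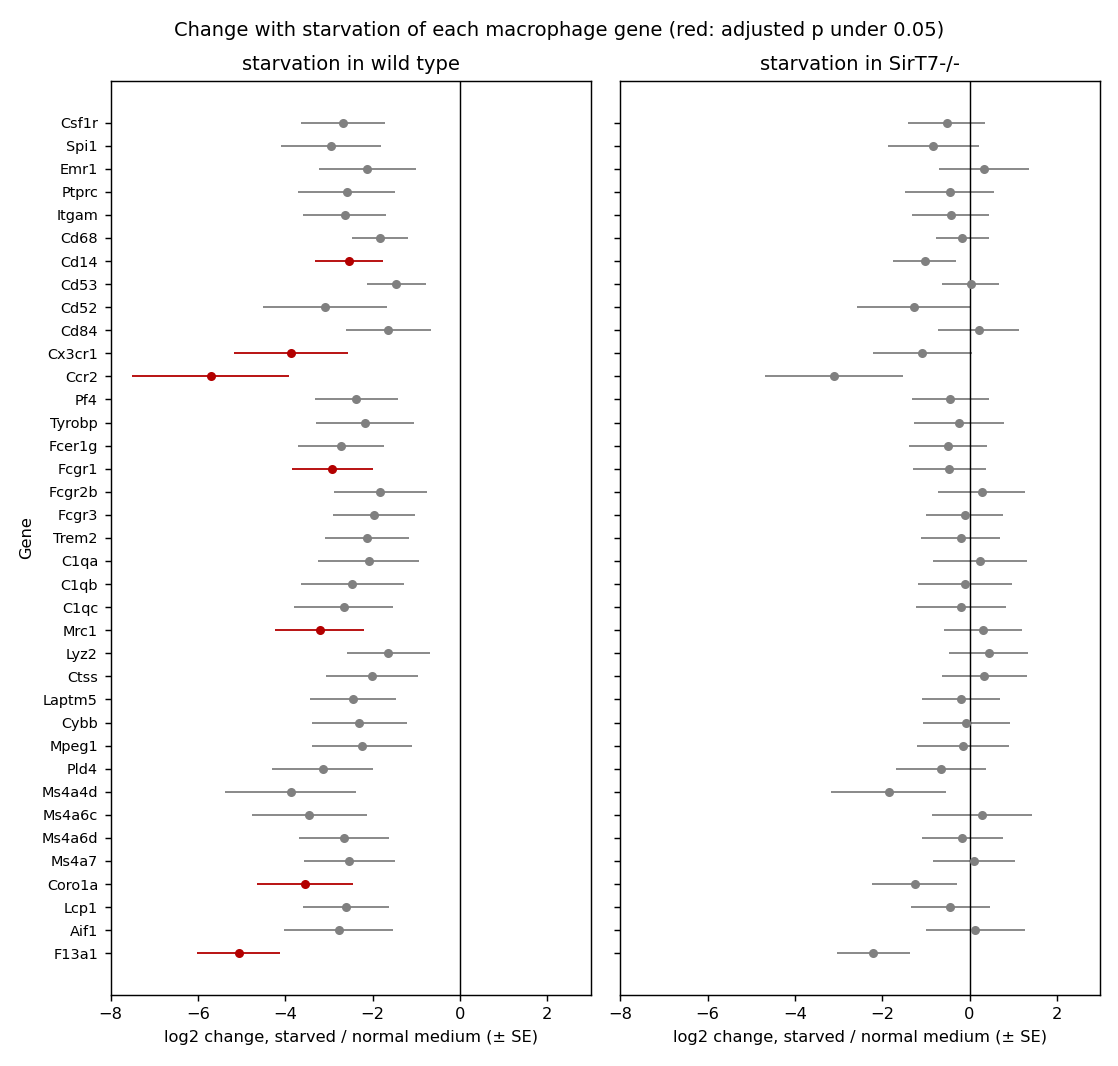
Log2 change with starvation of each of the 37 genes, wild type on the left and SirT7-/- on the right, from edgeR, with bars of 1 SE and red for an adjusted p under 0.05. All 37 wild-type points lie left of 0 and 7 are red, and in SirT7-/- 26 lie left of 0 and none is red.

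The same question in SirT7-/- cultures gave no call among the members. With all libraries as labelled, 0 of 37 members passed an adjusted p under 0.05 in edgeR, and 0% of all genes did. The median log2 change of the members was -0.20, with 26 negative and 11 positive, and at an unadjusted p under 0.05 there was 1 member, F13a1, against 18.6% of all genes. No member had groups that did not overlap, against 6.45% of all genes with every starved library lower. DESeq2 also called 0 members, against 1.63% of all genes, 222 of 255 of them lower, and limma-voom 0 members and 0% of all genes.

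Without the libraries labelled KO-GS 3 and KO-NT 4, which leaves 3 fed and 2 starved SirT7-/- libraries, 2 members fell, against 14.5% of all genes that fell. Ms4a4d changed by -5.64 (SE 1.19, adjusted p = 0.00498), with 0 counts in KO-GS 1, and F13a1 changed by -2.85 (SE 0.820, adjusted p = 0.0220). The other 35 were not called, their median with these 2 being -0.21. For Csf1r the log2 value was -0.77 (SE 1.12, adjusted p = 0.635) and for Mrc1 0.25 (SE 1.14, adjusted p = 0.884).

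Loss of SirT7 was not accompanied by a called change of any member in either medium. In normal medium 0 of 37 passed, as did 0.00638% of all genes, a single gene. Members' changes were negative for 36 of 37 with a median of -0.70, and 2 were under an unadjusted p of 0.05, against 4.20% of all genes. These were F13a1 at -2.86 (SE 0.745, adjusted p = 0.968) and Mrc1 at -2.17 (SE 0.868, adjusted p = 0.968) on the log2 scale. The WT-NT mean of F13a1 was 20.3 ± 19.3 CPM and the KO-NT mean 2.73 ± 1.65 CPM, and the lowest WT-NT library at 9.22 CPM was above the highest KO-NT library at 4.00 CPM. DESeq2 called 1 member in this comparison, against 0.147% of all genes in either direction and 0.0702% lower. In the fit without KO-GS 3 and KO-NT 4 as labelled, 0 members passed, against 0.0252% of all genes, and the log2 change of F13a1 was -2.49 (SE 0.633, adjusted p = 0.466).

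In glucose-free medium 0 of 37 members passed, against 0.00638% of all genes. Their changes were positive for 36 of 37 with a median of 1.45, and Cd68 alone was under an unadjusted p of 0.05, with 1.46 (SE 0.662, adjusted p = 0.893), against 3.88% of all genes. In the fit without those 2 libraries no member passed, against 0.0063% of all genes, the median was 1.38, and no member was under an unadjusted p of 0.05, against 2.19% of all genes. WT-GS 2, the lowest library for 35 members with 2 ties, belongs to this comparison.

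The difference between genotypes in the response to starvation was tested as an interaction. None of the 37 members passed in edgeR, nor did any other gene (0%); DESeq2 called 0 members and 5 other genes, and limma-voom none. The same held without those 2 libraries (0 of 37, and 0% of all genes). With all libraries the interaction was positive for all 37 with a median of 2.22 on the log2 scale, and Mrc1, F13a1 and Ms4a6c were under an unadjusted p of 0.05, against 6.06% of all genes. Mrc1 had an interaction of 3.52 (SE 1.32, adjusted p = 0.6797), F13a1 of 2.86 (SE 1.13, adjusted p = 0.6797) and Ms4a6c of 3.74 (SE 1.68, adjusted p = 0.6797). The call of 7 members in wild type and of 0 in SirT7-/- is thus not shown to be a difference between the genotypes. These comparisons share libraries, so that WT-NT 3 and WT-GS 2 enter several of them.

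To see how the members varied among themselves, the counts of each were divided by those of Csf1r in the same library. This ratio does not depend on the library total, and the genes singled out from it were chosen after their values were seen. Over the 13 libraries other than WT-GS 2, where 108 counts of Csf1r leave the ratios imprecise, 8 of the 36 ratios varied less than 2-fold, 21 varied 2-fold to 5-fold and 4 varied 5-fold or more. The other 3, of Cd52, Ccr2 and Ms4a4d, included a count of 0. The steady ones were Lcp1, at 1.02 to 1.35, Itgam at 0.228 to 0.324, Fcer1g at 0.245 to 0.320, Spi1 at 0.0859 to 0.126, and Laptm5, Ptprc, Tyrobp and Fcgr1. Lcp1 itself varied 25.3-fold in CPM over those libraries.

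Some ratios were higher in most starved libraries. Lyz2 relative to Csf1r stood at 3.22, 4.41, 3.46 and 5.28 in WT-NT 1 to 4, at 9.23, 3.08 and 6.44 in WT-GS 1 to 3, at 2.25, 3.11, 3.6 and 8.11 in KO-NT 1 to 4 and at 7.66, 9.68 and 6.48 in KO-GS 1 to 3. Apart from WT-GS 2, the starved libraries of each genotype were above the fed ones other than KO-NT 4, whose ratio lay among those of the starved libraries. Cd84 relative to Csf1r stood at 0.122, 0.118, 0.139 and 0.198 in WT-NT 1 to 4, at 0.363, 0.157 and 0.227 in WT-GS 1 to 3, at 0.120, 0.122, 0.142 and 0.311 in KO-NT 1 to 4 and at 0.304, 0.272 and 0.208 in KO-GS 1 to 3. It showed the same order, again with KO-NT 4 among the starved libraries.

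Other ratios were lower without glucose. Cx3cr1 relative to Csf1r stood at 0.535, 0.386, 0.620 and 0.401 in WT-NT 1 to 4, at 0.282, 0.0278 and 0.212 in WT-GS 1 to 3, at 0.363, 0.352, 0.354 and 0.219 in KO-NT 1 to 4 and at 0.186, 0.103 and 0.299 in KO-GS 1 to 3. The starved libraries were all below the fed ones of the same genotype, except that KO-NT 4 lay below KO-GS 3. Coro1a relative to Csf1r stood at 0.274, 0.331, 0.314 and 0.144 in WT-NT 1 to 4, at 0.164, 0.0926 and 0.146 in WT-GS 1 to 3, at 0.296, 0.283, 0.265 and 0.192 in KO-NT 1 to 4 and at 0.171, 0.170 and 0.147 in KO-GS 1 to 3. Here WT-NT 4 lay among the starved wild-type libraries, below WT-GS 1 and 3. KO-NT 4 at 0.192 lay between the other fed SirT7-/- libraries and the starved ones, and KO-GS 3 as labelled was lower than every KO-NT library.

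**Figure D5:**
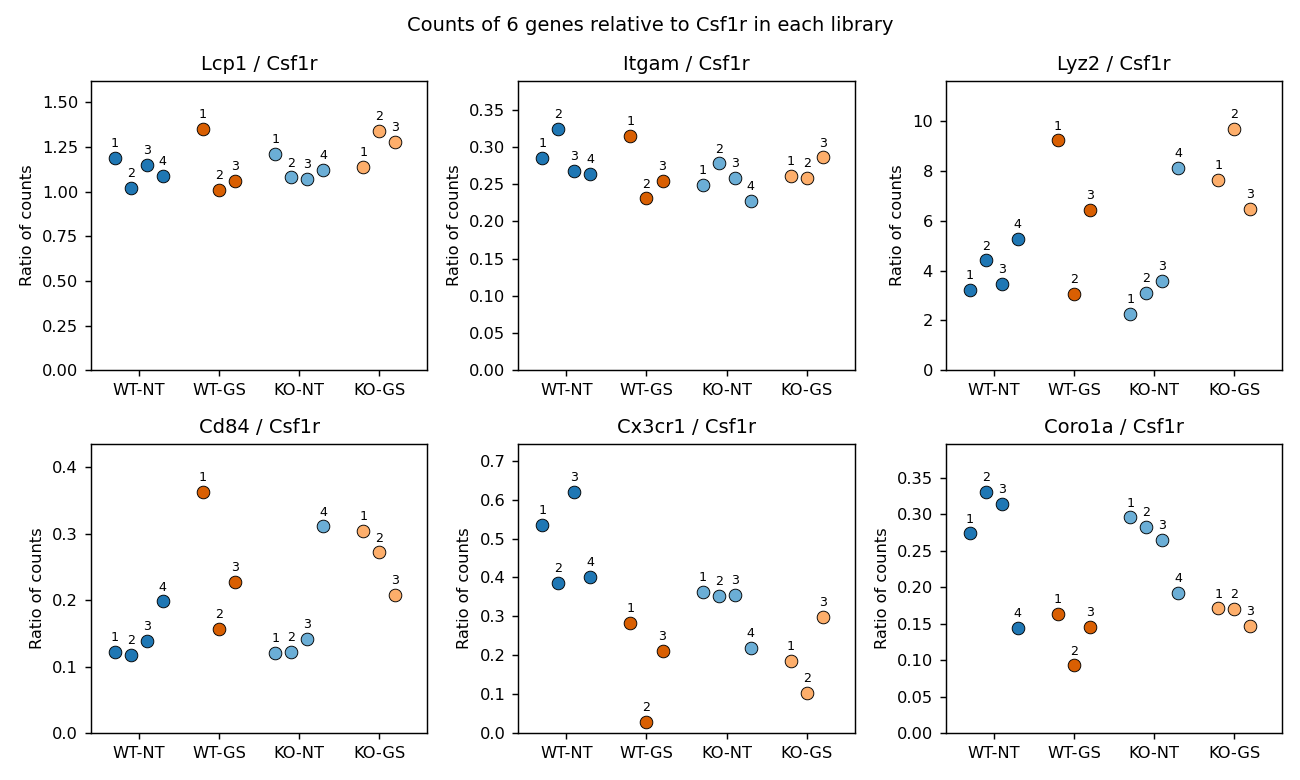
Counts of 6 members divided by the counts of Csf1r, 1 point per library with its replicate number, by group, on linear axes from 0. Lcp1 and Itgam stay nearly level, Lyz2 and Cd84 are higher and Cx3cr1 and Coro1a lower in most starved libraries.

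The widest ratios were those of F13a1, which varied 43.8-fold, followed by Aif1 at 8.33-fold, Cx3cr1 at 5.99-fold and C1qa at 5.61-fold. F13a1 relative to Csf1r stood at 0.106, 0.281, 0.213 and 0.153 in WT-NT 1 to 4, at 0.0365, 0.120 and 0.0254 in WT-GS 1 to 3, at 0.0251, 0.0655, 0.0685 and 0.00642 in KO-NT 1 to 4 and at 0.00648, 0.0548 and 0.0137 in KO-GS 1 to 3. Apart from WT-GS 2, with 13 counts of F13a1, it was highest in the fed wild-type libraries, and it was lowest in the library labelled KO-NT 4. In WT-GS 2, several members kept more of their level than Csf1r did. Cd53, Cd68 and Cd14 retained 8.61, 5.43 and 2.73% of their WT-NT 3 level there, whereas Csf1r retained 0.783%, C1qb 0.101% and Cx3cr1 0.0351%.

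A further list of 76 macrophage and myeloid genes was drawn from general knowledge. Of the 75 that were found 73 were tested in wild type, of which 15 fell and none rose, with a median log2 change of -2.27, beside 13.1% of all genes falling. In SirT7-/- none was called, as among all genes tested (0%), and the median was -0.26. Without the libraries labelled KO-GS 3 and KO-NT 4, 1 of 75 rose and 1, Irf5, fell in SirT7-/-, against 18.6% of all genes rising and 14.5% falling. The 4 called in wild type with the smallest p were Irf5, a transcription factor of inflammatory macrophages, at -1.58 (SE 0.388, adjusted p = 0.0245), the adapter Apbb1ip at -0.66 (SE 0.194, adjusted p = 0.0320), the kinase Syk, which Fc receptors signal through, at -1.31 (SE 0.385, adjusted p = 0.0323), and the lysosomal protease Lgmn at -0.82 (SE 0.247, adjusted p = 0.0338). The most abundant of the list, Gpnmb and Ctsz, were not called, with 0.91 (SE 0.613, adjusted p = 0.267) and -0.10 (SE 0.0974, adjusted p = 0.424). Fibroblasts express several of these genes too, and in WT-GS 2 the list still summed to 799 CPM, where the 37 members summed to 25.46 CPM.

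Of 9 genes typical of microglia 8 were tested and 5 fell in wild type, with a median of -1.31, against 13.1% of all genes falling. They included P2ry12, a purine receptor of microglia, at -3.48 (SE 1.07, adjusted p = 0.0360) and Fcrls at -4.79 (SE 1.53, adjusted p = 0.0402), and also Olfml3 at -1.73 (SE 0.403, adjusted p = 0.0245) and Tmem119 at -0.89 (SE 0.244, adjusted p = 0.0276). P2ry12 had 4.61, 0.583, 12.6 and 2.05 CPM in WT-NT 1 to 4 and 0.613, 0.117 and 0.540 CPM in WT-GS 1 to 3. WT-GS 1 thus lay just above WT-NT 2, and the other starved libraries below all fed ones. Sparc, the most abundant gene of that list and also a product of fibroblasts, was not called. Bulk RNA does not show which cells the changes of Olfml3, Tmem119 and the others came from, and this was not tested.

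Of 16 genes typical of resident macrophages 11 were tested in wild type and 3 fell, against 13.1% of all genes, namely Igf1 at -2.06 (SE 0.543, adjusted p = 0.0256), Cbr2 at -2.14 (SE 0.607, adjusted p = 0.0298) and the transcription factor Maf. Of 12 typical of monocytes 10 were tested and 1 fell, against the same 13.1%, namely Gsr, at -0.78 (SE 0.230, adjusted p = 0.0326), while Vcan, the most abundant, was not called. In SirT7-/- with all libraries none of the genes in these lists was called, against 0% of all genes. Without KO-GS 3 and KO-NT 4 as labelled, where 14.5% of all genes fell and 18.6% rose, Olfml3 and Tmem119 fell and 1 rose of the 8 microglia genes, Gsr alone fell of 9 monocyte genes, and none of 12 resident genes was called. Fibroblast markers also moved with starvation. In SirT7-/- without those 2 libraries 6 of 8 fell, with a median of -1.40. In wild type 6 of 8 fell, against 13.1% of all genes, at a median of -1.58, among them Col1a1 at -2.07 (SE 0.495, adjusted p = 0.0245), although their summed level was at least 9207 CPM in each library. Their part in the macrophage result was not tested, nor was the cell source of the calls on the microglia, resident and monocyte lists.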

How the data were processed

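Total RNA was prepared with TruSeq kits, per the labels' protocols. The submitters' processing notes name FastQC 0.11.3, Trimmomatic 0.36, HISAT2 2.1.0, SAMtools, StringTie 1.3.3 and DESeq2 1.18.1 and the build mm9, with no parameters or strand setting. The authors deposited estimated counts per gene for 14 libraries, which were rounded to whole numbers here. CPM is the count divided by the library total, times 1000000. Tests used edgeR 4.0.16 (quasi-likelihood, robust, TMM, minimum count of 10, total of 15) in R 4.3.3, with 1 mean per group over all 14 libraries; a standard error was worked back from each F. Calls needed a Benjamini-Hochberg adjusted p under 0.05. The fit was checked on simulated counts with a capped spread and with genes drawn independently. That check does not cover genes that vary as widely and as jointly as these members. Alternatives used DESeq2 1.42.0, limma 3.58.1, other scalings and filters, replicate blocks, and each library left out. The members and all lists were chosen with earlier results of these data known. Given in every library were the member of highest mean in each role, Csf1r, Emr1 and Ptprc, all members called, and the 3 that deviated most from the rest. Of the 15 other lists, 1 is not reported here; those for mast cells (0 to 0.523 CPM summed), megakaryocytes (10.5 to 32.9), endothelium (6.08 to 22.0), erythroid cells (0.393 to 0.960), dendritic cells (3.96 to 9.25) and osteoclasts (73.5 to 249) had no member called in wild-type starvation except 1 osteoclast gene. Members could share reads with paralogues (Lyz2 with Lyz1, the Fcgr and Ms4a genes).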

Additional observations from a re-analysis of the deposited data

Results flagged for a closer look

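In groups of 4 libraries, a value was picked out where its gap to the nearest library, as a share of the group's range, exceeded the critical value of Dixon's test. Of 76 such checks (the 37 genes and their sum in WT-NT and KO-NT) 10 exceeded it, where chance gives about 1 in 20, and the genes are not independent. KO-NT 1 stood apart above the other KO-NT libraries for Csf1r at 120.3 CPM, Spi1 at 13.7, Ptprc at 31.2, Cd52 at 8.18, Ccr2 at 9.07, Fcer1g at 32.4, Fcgr1 at 9.96 and Lcp1 at 145.4 CPM. The library labelled KO-NT 4 stood apart for C1qa at 43.7 CPM. WT-NT 3 stood apart among the fed wild-type libraries for F13a1 at 49.1 CPM.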

How the results depend on the processing

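For starvation in wild type, where 7 members were called, DESeq2 called 24 and limma-voom 1; with a replicate block 33 were called (21% of all genes fell), with a replicate block within genotype 30 (16.8%), and 31 with that block and without the libraries labelled KO-GS 3 and KO-NT 4 (18.6%), a fit added after seeing the data. Leaving out 1 library gave 0 to 12, where 0 to 18.2% of all genes fell. Other scalings, filters, and the fit of only the groups compared gave 6 to 8, where 8.58 to 17% of all genes fell. For starvation in SirT7-/-, where none was called, the replicate block called 3 (19.8% of all genes in either direction) and the block within genotype 2 (16.9%). That block without both libraries called 4 (23.7%). Leaving out both gave 2 (33.1%), and leaving out 1 library 0 to 1, the 1 being without KO-NT 4 (21.1%). For SirT7 loss in normal medium DESeq2 called 1 against 0 (0.147% of all genes in either direction), and leaving out 1 library gave 0 to 0. SirT7 loss in glucose-free medium and the genotype difference stayed at 0 in every fit run. The labels do not say what the replicate numbers mean. The main fit did not take them as a pairing, since not every same-numbered pair correlated above 0.1, which does not show that they are unpaired. Over 13 such pairs, correlations of deviations from group means ran from -0.116 to 0.458, and 8 were over 0.1. Of 13 libraries, 7 correlated best with their own number. Without the libraries labelled KO-GS 3 and KO-NT 4, KO-NT 1 and KO-GS 1 went from -0.101 to 0.286. WT-NT 3 and KO-NT 3 went from -0.116 to -0.196. Replicate 2 had the lowest summed level in WT-NT, WT-GS and KO-GS, and replicate 3 in KO-NT. Log2 ratios of the summed level, left without 1 library at a time, ran from -2.80 to -1.64 for starvation in wild type and -0.67 to 0.50 in SirT7-/-. For SirT7 loss they ran from -1.08 to -0.13 in normal medium and from 0.84 to 2.03 without glucose. Each differed from the ratio over all libraries by less than the pooled SD of the log2 sums within groups. That says nothing on whether the ratios themselves exceed this spread. No direction of a called value reversed. Over all alternatives the adjusted p of the 7 called genes ran from 2.42e-08 (F13a1) to 0.282 (Ccr2), and their changes stayed negative. Depth limits WT-GS 2 most, where 6 members had under 3 counts. The cause of these changes was not tested.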

Other observations

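Fibroblasts make ligands for macrophage receptors. Csf1, the ligand of CSF1R, stood at 501, 428, 468 and 325 CPM in WT-NT 1 to 4 and at 336, 634 and 342 CPM in WT-GS 1 to 3, highest in WT-GS 2, where the macrophage genes were lowest, and its log2 change was 0.06 (SE 0.244, adjusted p = 0.866, edgeR). Il34, the other ligand of that receptor, had 2.12 to 3.36 CPM in WT-NT and 4.60 to 5.02 CPM in WT-GS, and rose by 0.90 (SE 0.223, adjusted p = 0.0246) on the log2 scale. Cx3cl1, the ligand of Cx3cr1, stood at 48.6 to 135 CPM in WT-NT and at no more than 17.2 CPM in WT-GS, and changed by -2.78 (SE 0.744, adjusted p = 0.0263). Cxcl12 also fell, by 1.88 on the log2 scale (SE 0.355, adjusted p = 0.0245). Of the 8 ligands tested, 1 rose and 2 fell in wild type, with 12.9% of all genes rising and 13.1% falling. None was called in SirT7-/- with all libraries, against 0% of all genes. Without the libraries labelled KO-GS 3 and KO-NT 4, 3 fell in SirT7-/-, namely Cx3cl1, Cxcl12 and Ccl2, beside 14.5% of all genes.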
